A study of Homo sapiens with 6 samples.

Results

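Fibronectin and the matricellular proteins are secreted glycoproteins of the extracellular matrix. The 10 genes described here are *FN1*, *FBN1*, *FBLN1*, *THBS1*, *TNC*, *TGFBI*, *SPARC*, *SPOCK1*, *FSTL1* and *FSTL3*. They were taken by symbol from 25369 genes in RNA-Seq data of Caki2, a cell line of clear cell renal cell carcinoma (ccRCC) that lacks PBRM1 protein. PBRM1 is a subunit of the PBAF chromatin remodeling complex. Caki2 cells carrying an empty doxycycline-inducible lentiviral vector (Caki2+Vector, n = 3) were compared with Caki2 cells carrying the same kind of vector with PBRM1 (Caki2+PBRM1, n = 3). Both groups received doxycycline at 2 µg/ml, so exposure to the drug was shared. Each group is one stably infected line selected with antibiotics, and the labels give its replicates as A, B and C without stating whether they were separate cultures, while the study's text refers to biological replicates. The p-values therefore measure the spread between these samples, which may in part be technical, and not the spread between separately infected lines. PBRM1 and any other difference between the lines cannot be told apart. The members were chosen with the comparison of Caki2+PBRM1 and Caki2+Vector already known, in particular the place of *FN1* as the gene with the most counts, so their own values are given as a description and without a p-value.

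Fibronectin is laid down by cells as fibrils that carry an attachment site for integrins, and other matrix molecules assemble on it. Fibrillin builds the microfibrils that scaffold elastic fibers and hold latent TGF-beta, and fibulins bind both fibronectin and elastic fibers. Matricellular proteins such as thrombospondin, tenascin-C and SPARC contribute little to the structure of the matrix and instead modulate adhesion and growth factor signals. High fibronectin is a familiar feature of ccRCC and of cells with mesenchymal traits.

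The values are normalized counts, that is, reads on a gene divided by a size factor of its sample. Depth ran from 7312955 to 10835355 reads on genes per sample. *PBRM1* had 195.0, 182.3 and 182.2 normalized counts in Caki2+Vector A, B and C and 2432, 2521 and 2682 in Caki2+PBRM1 A, B and C, which follows the labels. Of the renal epithelial markers, *PAX8* had means of 2072 and 2094 normalized counts in Caki2+Vector and Caki2+PBRM1, *KRT8* of 8572 and 7569, and *KRT18* of 3529 and 2786. *KRT8* and *KRT18* passed the test as lower (log2 fold changes -0.18 and -0.34, adjusted p = 2.1e-04 and 1.7e-07, limma) and *CDH16* as higher (0.40, adjusted p = 2.6e-05, limma), and their part in the results was not tested. In contrast, *EPCAM*, *CA9*, *LRP2* and *CUBN* stayed under 20 in every sample, and *PAX2* had means of 29.8 and 24.8. At these low levels *EPCAM*, *CA9* and *LRP2* were higher in every Caki2+PBRM1 sample than in any Caki2+Vector sample. *EPCAM* did not pass, and *CA9* and *LRP2* were too low to be tested. The summed level of 9 fibroblast markers ran from 104.3 to 114.3 without and from 104.1 to 131.5 with PBRM1, mostly *COL1A1*, and *COL1A2*, *COL3A1*, *DCN* and *LUM* were at or near 0. Endothelial markers summed to at most 7.11, and among leukocyte markers only *CD68*, a lysosomal protein, was abundant, at 1898 to 2140 normalized counts, and *PTPRC* was at most 5.68. Caki2+Vector A stood apart from its group: the chi-square per degree of freedom was 3.09 and 2.84 between it and replicates B and C, against 1.34 between B and C and 1.19 to 1.22 within Caki2+PBRM1.

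Start regions of members are shown as a description of the reference sequence. RefSeq (GRCh38.p14) gave a promoter for 9 of the 10 members, all but *SPOCK1*. The sequence of *FN1* holds the 250 bases before its start (chr2:215436069-215436318, minus strand), and the 4 members that exceeded a log2 fold change of 1 are given with 150 bases each: *FSTL1* (chr3:120450993-120451142, minus strand), *FBN1* (chr15:48644971-48645120, minus strand), *THBS1* (chr15:39580929-39581078, plus strand) and *TNC* (chr9:115118158-115118307, minus strand). All are written 5′ to 3′ on the strand of the gene and end at the base before the start. Capitals mark any of 6 motifs on either strand, namely the cyclic AMP response element TGACGTCA (CRE), the AP-1 site TGANTCA, the TATA box searched as TATAA, the box bound by NF-Y searched as CCAAT, the M-CAT element GGAATG bound by TEAD factors, and the CAGA element CAGACA bound by SMAD factors. The printed stretch of *FSTL1* holds none of them.
FN1: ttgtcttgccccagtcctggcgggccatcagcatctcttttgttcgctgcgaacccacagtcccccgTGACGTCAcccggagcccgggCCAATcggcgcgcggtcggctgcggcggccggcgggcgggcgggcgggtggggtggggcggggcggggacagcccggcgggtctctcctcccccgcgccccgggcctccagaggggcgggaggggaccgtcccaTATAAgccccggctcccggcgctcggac
FSTL1: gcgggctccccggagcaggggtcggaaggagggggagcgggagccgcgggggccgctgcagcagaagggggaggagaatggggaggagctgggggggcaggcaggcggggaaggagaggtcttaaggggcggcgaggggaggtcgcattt
FBN1: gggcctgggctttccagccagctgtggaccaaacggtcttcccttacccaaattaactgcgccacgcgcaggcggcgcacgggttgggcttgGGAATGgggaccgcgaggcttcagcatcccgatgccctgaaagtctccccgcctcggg
THBS1: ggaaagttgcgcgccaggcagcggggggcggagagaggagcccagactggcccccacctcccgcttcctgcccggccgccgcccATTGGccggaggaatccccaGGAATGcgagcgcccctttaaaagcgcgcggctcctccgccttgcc
TNC: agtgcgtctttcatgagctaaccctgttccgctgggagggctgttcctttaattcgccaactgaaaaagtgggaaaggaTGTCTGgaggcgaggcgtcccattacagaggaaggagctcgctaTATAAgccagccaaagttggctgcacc

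The letters of the CRE were found within 250 bases before the start of *FN1* alone among the 9 members, with the first base 183 bases before the start, and 1.65% of 35116 RefSeq promoters held them in a window of the same length. *FN1* also held CCAAT, from 162 bases before the start, which 32.0% of promoters contained, and TATAA, from 28 bases before it. TATAA was present in 3 members (*FN1*, *TNC* and *FSTL3*) and in 18.9% of promoters. GGAATG was present in *FBN1*, *THBS1* and *SPARC* and in 11.9% of promoters, CAGACA in *TNC* and in 13.6%, and TGANTCA in 0 of the 9 and in 6.57% of promoters. A further motif, the GC box GGGCGG, is not marked in the sequences. It was present in 7 of the 9 members and in 42.6% of promoters. None of the marked motifs overlapped another in these members. The median GC content of the 250 bases was 72.8% over the 9 members and 58.0% over all promoters. These matches describe letters in the reference sequence and no binding was measured.

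*FN1* (ENSG00000115414; chromosome 2 of GRCh37, 216225163 to 216300796, minus strand) took the most counts in all 6 samples. It had 176188, 190651 and 184887 normalized counts in Caki2+Vector A, B and C and 345140.1, 353498 and 346254 in Caki2+PBRM1 A, B and C. The lowest Caki2+PBRM1 sample was far above the highest Caki2+Vector sample. The log2 fold change from limma, on log2(normalized count + 1), was 0.92 (SE 0.024), and the mean was 1.89 times higher in Caki2+PBRM1. As a share of all normalized counts, *FN1* took 2.02%, 2.16% and 2.11% in Caki2+Vector and 3.79%, 3.89% and 3.81% in Caki2+PBRM1. The mean share went from 2.10% ± 0.071 to 3.83% ± 0.056 (SD, n = 3 each), a difference of 1.73 percentage points. Counts per gene do not separate the spliced forms of fibronectin, and in RNA from bulk cultures more cells expressing a gene and more RNA per cell cannot be told apart.

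The gene with the next most counts was *SPP1*, *AKR1C1* or *GAPDH*, depending on the sample. Its counts were exceeded by those of *FN1* 3.06 to 3.40 times in Caki2+Vector and 6.11 to 6.32 times in Caki2+PBRM1. This order holds for counts not corrected for length, and the *FN1* transcript is long. Per kilobase of the canonical transcript *FN1* had 21920 ± 868 normalized counts without PBRM1, below *SPP1* (35173 ± 1778) and *GAPDH* (39106 ± 1548; SD, n = 3 each). With PBRM1 it had 41513 ± 541 per kilobase, above *SPP1* (35502 ± 874) and still below *GAPDH* (43469 ± 350). *AKR1C1* was below *FN1* in both groups, with 8430 ± 143 without and 6904 ± 42 with PBRM1. Outside the members only *SPP1*, *AKR1C1* and *GAPDH* were compared per kilobase, so the rank of *FN1* by this measure is not known. *SPP1* encodes osteopontin, another secreted integrin ligand. Its mean was 54906 ± 2775 (SD, n = 3) without and 55419 ± 1365 (SD, n = 3) with PBRM1, a log2 fold change of 0.014 (95% interval -0.049 to 0.077) that did not pass the test (adjusted p = 0.77, limma), although without Caki2+Vector A it passed at 0.049 (adjusted p = 0.044, limma). The mean of *FN1* rose by 164389 normalized counts, the largest rise of any gene, and the next largest was 8682 for the ferritin heavy chain gene *FTH1*. The summed normalized counts went from 8759430 ± 52381 to 9098151 ± 17889 (SD, n = 3 each), and the rise of *FN1* equaled 48.5% of this net difference. A net difference is the balance of rises and falls, so this is not a share of all change. Among the 50 genes with the most counts, 0 had a log2 fold change above that of *FN1*, and among 2028 tested genes with a mean of at least 1000 normalized counts, 12 did.

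**Figure D1:**
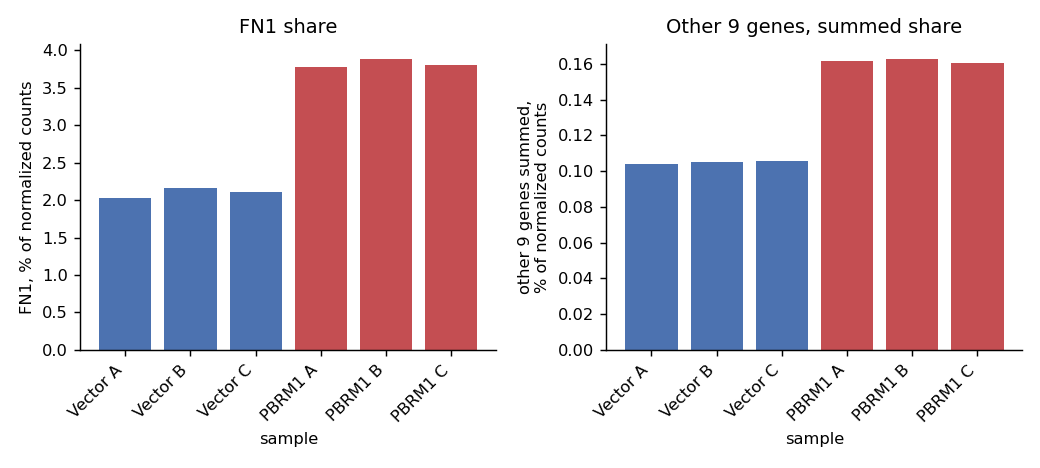
Share of normalized counts (%, y axis from 0) in each of the 6 samples (x axis; blue, Caki2+Vector; red, Caki2+PBRM1), for *FN1* on the left and for the other 9 genes summed on the right. *FN1* lies at 2.02% to 2.16% in the blue samples and at 3.79% to 3.89% in the red ones, while the other 9 genes together stayed under 0.164% in every sample.

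The other 9 members together took 0.105% ± 0.0010 of counts without and 0.162% ± 0.0012 with PBRM1 (SD, n = 3 each). When *FN1* was left out of the total, these shares were 0.107% and 0.168%. The rise of the summed share of all 10 members, from 2.20% to 3.99%, was thus nearly all *FN1* in counts.

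*FBN1* and *FBLN1*, which encode a fibrillin and a fibulin, were both higher in Caki2+PBRM1 but by very different amounts. *FBN1* (chromosome 15 of GRCh37, 48700510 to 48937918, minus strand) encodes fibrillin, the backbone of the microfibril. It had 576.5, 564.0 and 587.3 normalized counts in Caki2+Vector A, B and C and 2646, 2741 and 2603 in Caki2+PBRM1. The groups were well separated, with a mean 4.62 times higher in Caki2+PBRM1 and a log2 fold change of 2.21 (SE 0.046), rank 24 among the rises of all tested genes. Its rank by normalized count was 3657 to 3815 without PBRM1, against 485 to 532 with it.

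*FBLN1* (chromosome 22, 45898118 to 45997015, plus strand) encodes a fibulin, a calcium-binding glycoprotein found with fibronectin and elastic fibers. It had 1192, 1288 and 1353 normalized counts in Caki2+Vector and 1410.3, 1449 and 1479 in Caki2+PBRM1. The groups did not overlap, but the gap between the highest Caki2+Vector and the lowest Caki2+PBRM1 value was smaller than the range within Caki2+Vector. The log2 fold change was 0.18 (SE 0.048), against 0.13 without Caki2+Vector A and 0.13 when scaled to the total counts (CPM).

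Among the matricellular genes, *THBS1* and *TNC* more than doubled their level. *THBS1* (chromosome 15, 39873280 to 39891667, plus strand) encodes a thrombospondin, a ligand of CD47 and an activator of latent TGF-beta. It had 867.2, 909.8 and 871.4 normalized counts in Caki2+Vector A, B and C and 2150.1, 2059 and 2015 in Caki2+PBRM1, so its log2 fold change was 1.23 (SE 0.045). Every Caki2+PBRM1 value was above every Caki2+Vector value by more than the range of either group. Exons of *FSIP1* and *THBS1-AS1* overlap *THBS1* on the other strand, and no source states that counting used strand. *FSIP1* had means of 8.01 and 10.9 normalized counts, and *THBS1-AS1* was not among the counted genes. Genes on the other strand also overlap *TNC* (*DELEC1*), *SPARC* (*CLMAT3*) and *FSTL1* (*BTNL12P*), and these were not counted either. The part of such reads in the values was not tested.

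*TNC* (chromosome 9, 117781854 to 117880486, minus strand) encodes tenascin-C, which weakens adhesion to fibronectin. It was one of the 2 lowest members, with 75.7, 67.1 and 65.9 normalized counts in Caki2+Vector and 170.1, 166.2 and 169.5 in Caki2+PBRM1. The groups were separated, with a log2 fold change of 1.27 (SE 0.11).

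*SPARC* and *TGFBI* rose less in proportion. *SPARC* (chromosome 5, 151040657 to 151066536, minus strand) encodes osteonectin, a collagen-binding glycoprotein. It had 1638, 1577 and 1565 normalized counts in Caki2+Vector and 3000.4, 3024 and 2967 in Caki2+PBRM1. Its log2 fold change of 0.91 (SE 0.040) lay next to that of *FN1*. *TGFBI* (chromosome 5, 135364677 to 135399507, plus strand) encodes an adhesion protein named for its induction by TGF-beta. It had 1855, 2010.5 and 1984 normalized counts in Caki2+Vector and 2616, 2651 and 2679 in Caki2+PBRM1, and its log2 fold change was 0.44 (SE 0.041). For both genes the groups were separated.

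*SPOCK1*, *FSTL1* and *SPARC* encode proteins that share a follistatin-like and a calcium-binding module, yet their values did not move alike. *SPOCK1* (chromosome 5, 136310987 to 136934068, minus strand) encodes a proteoglycan of the testican family. It had 2234, 2094 and 2135 normalized counts in Caki2+Vector and 2042, 2059 and 2001 in Caki2+PBRM1. Every Caki2+PBRM1 value was below every Caki2+Vector value, although the mean differed little, with a log2 fold change of -0.08 (SE 0.041). *SPOCK1* did not pass the threshold on the authors' scaling. On CPM its log2 fold change was -0.14, and it passed.

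*FSTL1* (chromosome 3, 120111140 to 120169863, minus strand) encodes a secreted follistatin-like glycoprotein. It had the fewest counts of the members, with 9.47, 2.83 and 5.99 normalized counts in Caki2+Vector (10, 3 and 5 reads) and 74.7, 78.2 and 73.9 in Caki2+PBRM1 (69, 88 and 88 reads). It was near the limit of detection in Caki2+Vector and clearly present in Caki2+PBRM1. With 18 reads in Caki2+Vector and 245 in Caki2+PBRM1 summed over replicates, the ratio was 12.4 (95% exact conditional interval 7.68 to 21.3, which covers counting error only). The fitted log2 fold change was 3.55 (SE 0.28) and moved to 3.03 with a pseudocount of 4. Without Caki2+Vector A it was 3.89.

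*FSTL3* (chromosome 19, 676392 to 683392, plus strand) encodes a secreted inhibitor of activins. It had 604.9, 763.4 and 720.3 normalized counts in Caki2+Vector A, B and C and 648.8, 579.5 and 612.7 in Caki2+PBRM1. It was the only member whose groups overlapped, because Caki2+Vector A lay below 2 of the 3 Caki2+PBRM1 samples. The log2 fold change was -0.18 (SE 0.070), and it did not pass the threshold. Without Caki2+Vector A the log2 fold change was -0.27, and it passed.

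**Figure D2:**
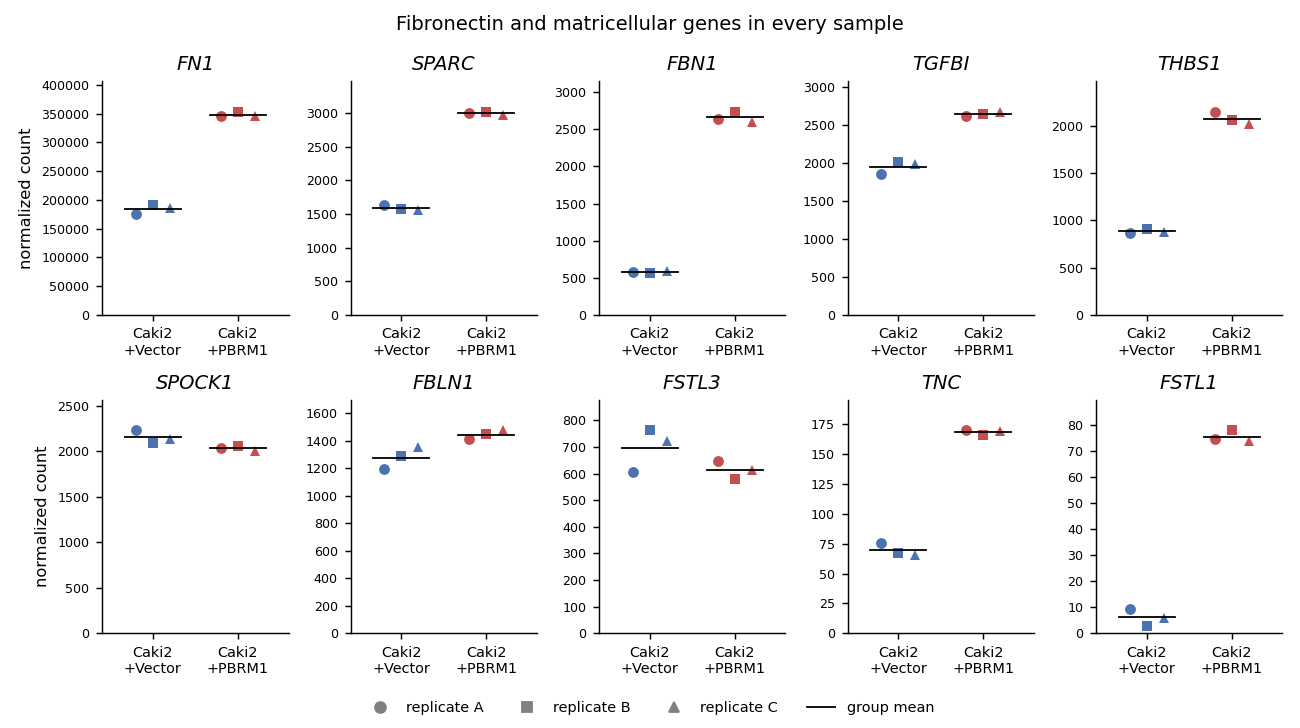
Normalized count (y axis, linear from 0, with its own scale for each gene) of the 10 genes in each sample; circles, squares and triangles are replicates A, B and C, blue is Caki2+Vector, red is Caki2+PBRM1, and black lines are group means. *FBN1*, *THBS1*, *TNC* and *FSTL1* show the widest relative gaps between the groups, and *FSTL3* is the gene whose groups overlap.

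Of the 10 members, 10 passed the filter of at least 10 normalized counts in at least 3 samples, 9 of them in all 6 samples and *FSTL1* only through the Caki2+PBRM1 samples. The genes past the threshold (adjusted p under 0.05, limma with Benjamini-Hochberg adjustment) included 8 members that were higher in Caki2+PBRM1 and 0 that were lower, whereas 16.2% of 13303 tested genes were higher and 13.0% lower, 29.2% in either direction. In 8 members every Caki2+PBRM1 value was above every Caki2+Vector value, and in 1 every value was below, against 22.1% and 19.6% of tested genes. With a log2 fold change above 1 there were 4 members, against 1.85% of tested genes. Since the members were chosen on this comparison, nothing is read from these counts. The median log2 fold change was 0.92 over the members and -0.0036 over all tested genes.

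**Figure D3:**
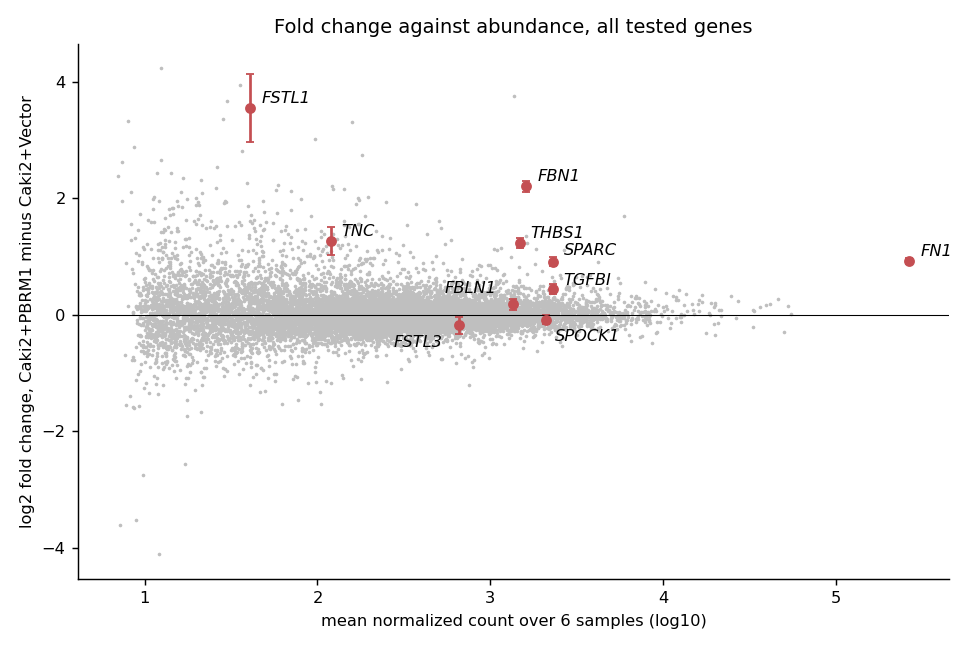
Log2 fold change (Caki2+PBRM1 minus Caki2+Vector, y axis) against the mean normalized count over the 6 samples (log10, x axis) for 13303 tested genes in gray and the 10 named genes in red, with 95% intervals of limma. *FN1* stands alone at the right edge, with a log2 fold change of 0.92, and *FSTL1*, at the left, has the widest interval.

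The scale on which samples are compared touched the smaller changes. Scaling to CPM, whose total includes *FN1*, moved the median log2 fold change of all genes from -0.0036 to -0.058. It turned the split of calls from 2152 higher and 1734 lower to 1624 higher and 2777 lower. What moved the median was not tested. On the counts outside the 10 members the median was -0.032 and the split was 1844 higher and 2207 lower. On both of these scales *SPOCK1* and *FSTL3* passed the threshold as lower in Caki2+PBRM1, and the 8 members that were higher stayed past it. Across the 15 or 16 alternative fits per member, each of the 10 members kept the sign of its log2 fold change. *FN1* ranged from 0.87 to 0.95 and *FBN1* from 2.15 to 2.22.

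Levels of different genes were compared per kilobase of the canonical transcript (GENCODE 44 on GRCh37). Among the members *FN1* led in both groups. *TGFBI* followed with 718.9 ± 30.7 per kilobase in Caki2+Vector and 976.6 ± 11.7 in Caki2+PBRM1. In Caki2+Vector the next levels were *SPARC* with 461.7, *SPOCK1* with 446.5 and *FBLN1* with 439.9 per kilobase, and neighbors in this run overlapped between samples, so their order was not resolved. *FSTL3* (278.4), *THBS1* (113.3), *FBN1* (49.6), *TNC* (8.19) and *FSTL1* (1.07) came after them, each apart from its neighbor.

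In Caki2+PBRM1 the order per kilobase was *SPARC* (868.5), *FBLN1* (497.9) and *SPOCK1* (421.6) after *TGFBI*, now without overlap. *THBS1* (266.4), *FSTL3* (245.4) and *FBN1* (229.4) formed a run in which neighbors overlapped. *FBN1* thus moved from below *FSTL3* and *THBS1* without overlap to a level next to both. *TNC* (19.8) and *FSTL1* (13.3) stayed lowest in both groups.

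The spread between replicates was small for most members. The coefficient of variation within Caki2+PBRM1 ran from 0.954% for *SPARC* to 5.65% for *FSTL3*. In Caki2+Vector it ran from 2.02% for *FBN1* to 11.8% for *FSTL3*, apart from *FSTL1*, where few reads gave 54.4%. It was larger in Caki2+Vector than in Caki2+PBRM1 for 8 of the 10 members, among them *FN1* (3.96% and 1.30%) and *TGFBI* (4.28% and 1.19%), and smaller for *THBS1* (2.66% and 3.32%) and *FBN1* (2.02% and 2.66%). These spreads were not tested.

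The pattern of *FN1* over the 6 samples was compared with that of 2021 genes outside the members with a mean of at least 1000 normalized counts, as the root mean square difference in log2(normalized count + 1) after centering on the Caki2+Vector mean. The 5 most alike genes were *NEFL* (0.041), a neurofilament chain, *NDRG1* (0.061), a gene induced by hypoxia, *TXNIP* (0.067), an inhibitor of thioredoxin and of glucose uptake, *INHBB* (0.093), the beta B subunit of activin, and *NT5E* (0.099), the ectonucleotidase CD73. *NEFL* rose from 2939 ± 171 to 5505 ± 81 normalized counts (SD, n = 3 each), close to the fold of *FN1*. Of the members with a mean of at least 1000, *SPARC* came nearest to *FN1*, with a difference of 0.053, between *NEFL* and *NDRG1*. The likeness is a description over 6 samples in 2 groups.

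Other genes of the same families were then examined, from lists chosen for their function. The lists were chosen with earlier results of these data known, so their counts and adjusted p-values are given as a description. Of 23 relatives of the matricellular members, 11 were tested, and 5 were higher in Caki2+PBRM1 and 0 lower, with a median log2 fold change of 0.29, against 16.2% and 13.0% of all tested genes and their median of -0.0036. *CTGF*, a CCN family protein that binds fibronectin and integrins, had 866.2, 924.0 and 913.3 normalized counts in Caki2+Vector and 2374, 2266 and 2249 in Caki2+PBRM1 (log2 fold change 1.35, SE 0.045, adjusted p = 6.1e-20, limma). *CYR61*, of the same family, rose from 387.9 ± 25.9 to 576.2 ± 27.9 (SD, n = 3 each), with a log2 fold change of 0.57 (adjusted p = 6.7e-08, limma). *NOV*, another CCN gene named because the count is small and after its values were seen, rose by 0.46 on the log2 scale (adjusted p = 3.0e-07, limma). *SMOC1* and *SPOCK3*, relatives of *SPARC* and *SPOCK1*, were past the threshold at low counts, but they had entered the test only through the Caki2+PBRM1 samples, since every Caki2+Vector value was under 10. *SPOCK3* had 0.947, 2.83 and 1.20 normalized counts in Caki2+Vector and 11.9, 14.2 and 10.9 in Caki2+PBRM1, a ratio of summed reads of 7.28 (95% interval 2.87 to 23.6), and *SMOC1* had a ratio of 4.1 (2.44 to 7.26). Neither passed the stricter filter of 10 normalized counts in every sample, which left 3 of the 5 calls. The other thrombospondin genes tested, *THBS2* and *THBS3*, had log2 fold changes of -0.21 and -0.14 and did not pass. They were named after their values were seen.

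Of 19 genes of elastic fibers and microfibrils, 10 were tested, and 3 were higher and 0 lower, with a median log2 fold change of 0.18. Over all tested genes 16.2% were higher and 13.0% lower. Counted in either direction, this list was near the 29.2% of all tested genes. *EMILIN2*, an elastin interface glycoprotein, rose from 77.6, 80.3 and 76.7 normalized counts to 213.4, 249.8 and 209.8 (log2 fold change 1.5, SE 0.11, adjusted p = 3.2e-12, limma). *EFEMP1*, a fibulin, rose from 18.7 ± 3.3 to 40.2 ± 3.9 (SD, n = 3 each; log2 fold change 1.08, adjusted p = 3.0e-04, limma). *LTBP1*, which tethers latent TGF-beta to fibronectin and fibrillin, rose from 57.1 ± 4.7 to 116.1 ± 12.3 (SD, n = 3 each; log2 fold change 1.01, adjusted p = 7.5e-07, limma). *LTBP3* had 1064 ± 145 and 1150.0 ± 21.5, and a log2 fold change of 0.12 (95% interval -0.049 to 0.29) that did not pass.

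Of 15 receptors of fibronectin and matricellular proteins, 12 were tested, and 8 were higher and 0 lower, against 16.2% and 13.0% of all tested genes, with a median log2 fold change of 0.32. *ITGA5* and *ITGB1*, whose products pair as the main fibronectin receptor, rose from 1248 ± 54 to 1767 ± 84 and from 17661 ± 361 to 20245 ± 141 normalized counts (SD, n = 3 each), with log2 fold changes of 0.50 and 0.20 (adjusted p = 1.2e-09 and 3.2e-06, limma). *ITGAV* and *ITGB3*, which also bind the attachment site of fibronectin, rose with log2 fold changes of 0.37 and 0.28 (adjusted p = 3.5e-10 and 9.1e-08, limma), and *ITGB6* with 0.67 (adjusted p = 6.2e-08, limma). *CD47*, a receptor of thrombospondin, rose from 487.6 ± 30.5 to 715.3 ± 24.1 (SD, n = 3 each; log2 fold change 0.55, adjusted p = 2.1e-08, limma). *LRP1*, which takes up thrombospondin and other matrix proteins, had the largest change of the 12, from 1377, 1553 and 1529 normalized counts to 2451, 2568 and 2452 (log2 fold change 0.75, SE 0.046, adjusted p = 1.4e-13, limma). The syndecan *SDC4* rose by 0.28 on the log2 scale (adjusted p = 2.4e-06, limma). *ITGB5*, *ITGB8* and *CD44*, each above 1000 normalized counts, had log2 fold changes of -0.08, 0.05 and 0.06 and did not pass, with intervals of -0.17 to 0.0057, -0.047 to 0.14 and -0.011 to 0.14. Without Caki2+Vector A, 11 of the 12 passed, among them *ITGB5* as lower (-0.13, adjusted p = 0.0022, limma).

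Of 9 genes of activins, the ligands that FSTL3 binds, and their receptors, 7 were tested, and 1 was higher and 1 lower, a count near the 29.2% of all tested genes called in either direction. The median log2 fold change was 0.042. *INHBB* rose from 730.8, 799.3 and 785.1 normalized counts to 1343, 1303 and 1392 (log2 fold change 0.80, SE 0.050, adjusted p = 1.9e-13, limma). *INHBA*, the beta A subunit, fell from 658.0 ± 11.1 to 590.8 ± 28.0 (SD, n = 3 each; log2 fold change -0.16, adjusted p = 0.039, limma). The call of *INHBA* was lost without a filter on low values, with DESeq2, and without Caki2+Vector C, Caki2+PBRM1 A or Caki2+PBRM1 C, with adjusted p of 0.059, 0.13, 0.092, 0.085 and 0.21.

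**Figure D4:**
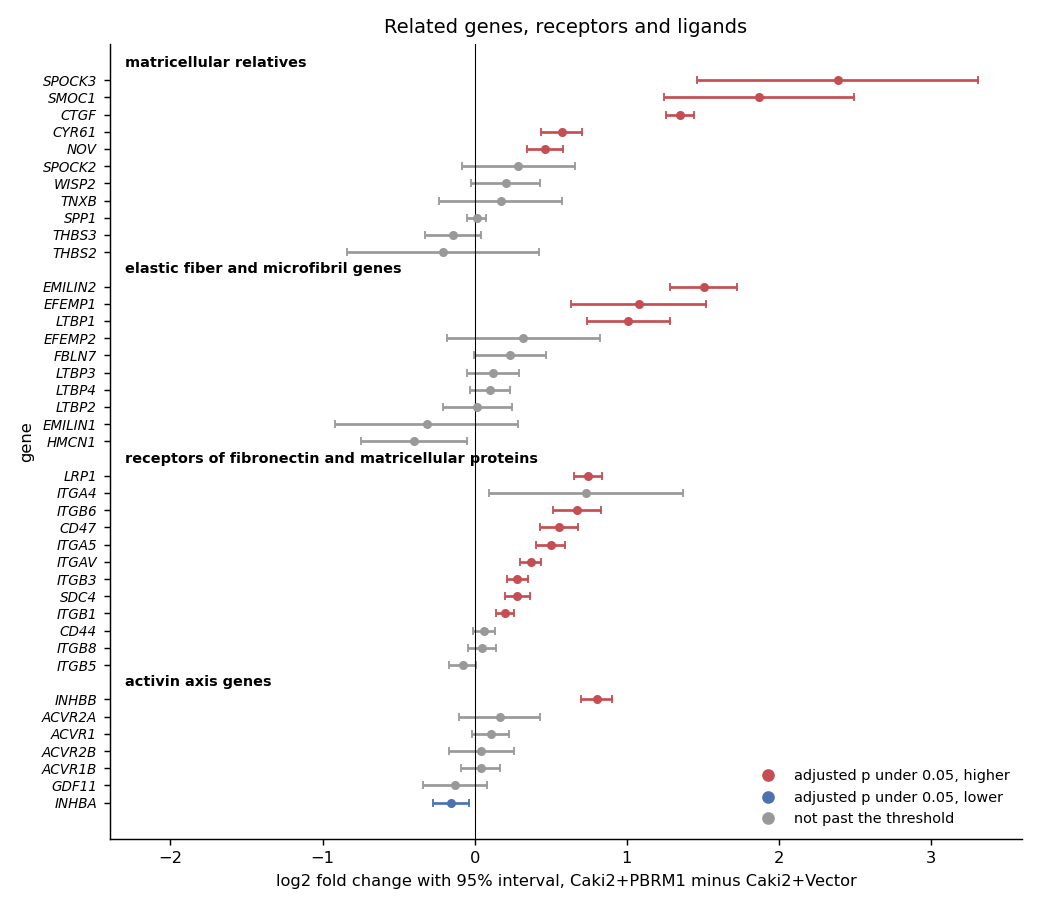
Log2 fold change with the 95% interval of limma (x axis, Caki2+PBRM1 minus Caki2+Vector) of the tested genes of 4 lists (y axis); red and blue mark genes past an adjusted p of 0.05 that were higher or lower, and gray marks the rest. In the list of receptors 8 of 12 genes were past the threshold, all of them higher, and in the activin list 1 was higher and 1 lower, against 16.2% higher and 13.0% lower over all tested genes.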

How the data were processed

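RNA-Seq reads of 3 Caki2+Vector and 3 Caki2+PBRM1 samples were processed by the authors, who trimmed and filtered the reads, mapped them with STAR (hg19) and obtained counts per gene from HTSeq. Whether counting used strand is not given in the sources used here. The deposited values are a signal per gene, namely the authors' DESeq2-normalized counts. In every file 100% of values were whole multiples of 1 step (tolerance 0.01 reads), so reads were recovered, with size factors of 0.834 to 1.191. Groups and replicate letters came from the labels.

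Genes with at least 10 normalized counts in at least 3 samples (13303 of 25369) were compared on log2(normalized count + 1) by limma 3.58.1 (R 4.3.3), using robust moderation with a mean trend (Benjamini-Hochberg adjusted p under 0.05). Count models, edgeR 4.0.16 and DESeq2 1.42.0, were run on the recovered reads as alternatives, together with other pseudocounts, filters and scalings, the replicate letter as a block, and each replicate left out. On simulated data with 200 of 13303 genes changed by a log2 fold change of 1, limma recovered 196 and made 6 false calls. The simulation gave all genes and samples the same dispersion and held no smaller changes and no outlying replicate. It therefore checks the procedure and does not measure the error rate of the calls made here. Intervals and ratios of reads cover counting error only.

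The members and lists were chosen with earlier results of these data known, and members have no test of their own. From each other list, the text names up to 4 genes with the largest change past the threshold and any gene with a mean above 1000 normalized counts. The genes most like *FN1* are the 5 with the smallest difference in pattern. Exceptions are stated where they occur. Gene positions and transcript lengths came from GENCODE 44 on GRCh37, and promoters from RefSeq (GRCh38.p14).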

Additional observations from a re-analysis of the deposited data

How the results depend on the processing

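The 8 members past the threshold as higher in Caki2+PBRM1, against 16.2% of tested genes in the main fit, remained so under every alternative. The exception was *FSTL1*, which left the test, leaving 7, when 10 normalized counts were required in all 6 samples. Since the members were chosen on this comparison, this describes the processing only and lends their calls no support. *FSTL3* and *SPOCK1* also passed, as lower, on CPM and on counts outside the members, and *FSTL3* also with edgeR and without Caki2+Vector A. With the replicate letter as a block, 9 members (with *FSTL3*) and 4107 genes passed, against 8 and 3886. Over all tested genes same-letter samples did not deviate together (correlations of -0.0077 to 0.014), so no pairing by letter was seen. Such correlations cannot exclude pairing in some genes. The block moved no list count by over 1.5 times. On recovered reads edgeR called 2193 genes higher and 1835 lower. DESeq2 called 2553 genes and an adjusted p under 0.01 left 2521. A filter of 10 in every sample left 3 matricellular relatives. The elastic fiber list gained 1 lower call without a filter on low values and on CPM. In the receptor list 1 lower call was gained on CPM and on counts outside the members. The activin list had 1 call with DESeq2 and 1 at an adjusted p under 0.01, and 1 to 3 when a replicate was left out. The rise in the members' share of counts, 1.79 percentage points, was 1.90 with *FN1* left out of the denominator. *SPP1* changed sign, to -0.040 on CPM and -0.014 on counts outside the members, and ranged from -0.024 to 0.049 with a replicate left out. *ITGB8* changed to -0.0092 on CPM and ranged from -0.0061 to 0.094. Neither passed in the main comparison, but without Caki2+Vector A both did, as higher (adjusted p = 0.044 and 0.047, limma). The cause was not tested. Of 366 other values for single genes, 351 kept their sign and side of the threshold. Depth limits *FSTL1*, *SPOCK3* and *SMOC1*, which rest on 18, 5 and 18 reads in Caki2+Vector.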

Other observations

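Some genes of the lists fell under the filter and were not tested in the main comparison. *VTN*, which encodes vitronectin, another integrin ligand, had 13.3, 14.2 and 9.59 normalized counts in Caki2+Vector A, B and C and 3.25, 6.22 and 1.68 in Caki2+PBRM1. These low values did not overlap, and *VTN* was named after they were seen. *SMOC2* and *FBN3* did not overlap in the other direction, with means of 0.63 and 0.71 in Caki2+Vector and 2.45 and 2.60 in Caki2+PBRM1. Of tested genes, 19.6% were lower and 22.1% higher in every Caki2+PBRM1 sample. *FST*, which encodes follistatin, and *FBLN5*, *MFAP2* and *TNR* had 0 reads in all 6 samples, which allows up to 2.5 to 3.6 normalized counts per sample (3 reads, counting error only).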
